A study of Mus musculus with 2 samples.

Results

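The mitochondrial ribosomal protein genes are the nuclear genes whose mouse symbols begin with Mrpl or Mrps followed by a number. They were chosen by matching the identifiers of the gene tables, without version, to symbols of that form, with 1 optional letter at the end. The rule found 77 genes among 43346 gene rows with an Ensembl identifier. Of these, 48 were named Mrpl (large subunit) and 29 Mrps (small subunit), on 17 chromosomes. Chromosome 11 held 11 of them, chromosome 17 held 8 and chromosome 6 held 7, while none lay on chromosome X. The annotation lists 78 symbols of this form, and Mrpl33 was not analysed here.

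The data came from the hearts of B6NCrl mouse embryos, a C57BL/6 substrain, at embryonic day 14.5, with no treatment or genotype named in the labels. There was 1 group of 2 libraries of total RNA, made from 1 heart each and called replicate 1 (collected on July 15) and replicate 2 (collected on July 17). The labels give the sex of each as a pool of male and female, although each describes 1 heart of pup 1. Embryo and collection day differed together and cannot be told apart, and with 1 group the measurements describe levels in this tissue and how far 2 hearts differed, with no p-value.

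The mitochondrial ribosome sits in the mitochondrial matrix and translates the few messenger RNAs of the mitochondrial genome, which encode core subunits of the respiratory chain and ATP synthase. Its ribosomal RNAs come from mitochondrial DNA, whereas all of its proteins are encoded in the nucleus, made by cytosolic ribosomes and imported. Some of the proteins descend from bacterial ribosomal proteins and others are found only in mitochondria. Inherited defects of several of them cause heart muscle disease in humans, and NRF1 and the ETS family factor GABP (also called NRF2) are the classic activators of nuclear genes for mitochondrial proteins.

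Promoter windows of 300 bases around the RefSeq start (250 before, 50 from the start on) were found for 68 of the 77 genes in RefSeq on GRCm38.p6. Mrpl4, Mrpl13, Mrpl15, Mrpl19, Mrpl38, Mrpl54, Mrps28, Mrps34 and Mrps35 had no window. Mrpl48 had 4 windows, Mrpl2 had 3 and Mrps16 had 2, from several starts, and a gene is counted where any of its windows holds the letters. The letters GCGCANGCG, a core of the NRF1 site, occurred on either strand in 16 genes (23.5%), against 7.03% of all 27025 genes with a window and 15.5% of the 9915 expressed genes with one (those that reached 1 TPM in both libraries). The letters CCGGAAG, a core bound by ETS factors, occurred in 25 genes (36.8%), against 9.93% of all genes and 20.4% of expressed genes. Counted by window, the letters were in 16 and 25 of the 74 windows (21.6% and 33.8%), against 13.1% and 17.3% of the 12724 windows of expressed genes. At least 1 of these motifs was found in 35 genes (51.5%, against 32.2% of expressed genes) and both in 1 window in 6 (8.82%, against 3.35%). The 6 were Mrps21, Mrpl17, Mrpl22, Mrps26, Mrps18b and Mrpl57. A match is a description of letters and not a binding site. The stretches that hold both motifs are shown for 5 of the 6, since they hold the motifs of both classic activators, written 5′ to 3′ on the gene's own strand with the motif letters of either strand in capitals. They lie at chr3:95871485-95871624 (minus strand) for Mrps21, chr7:105811085-105811337 (minus) for Mrpl17, chr11:58171591-58171644 (plus) for Mrpl22, chr2:130563723-130563774 (plus) for Mrps26 and chr14:57826162-57826254 (plus) for Mrpl57.
Mrps21: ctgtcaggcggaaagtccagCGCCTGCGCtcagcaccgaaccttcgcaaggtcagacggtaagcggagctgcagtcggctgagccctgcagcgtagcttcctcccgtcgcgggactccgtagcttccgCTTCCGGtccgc
Mrpl17: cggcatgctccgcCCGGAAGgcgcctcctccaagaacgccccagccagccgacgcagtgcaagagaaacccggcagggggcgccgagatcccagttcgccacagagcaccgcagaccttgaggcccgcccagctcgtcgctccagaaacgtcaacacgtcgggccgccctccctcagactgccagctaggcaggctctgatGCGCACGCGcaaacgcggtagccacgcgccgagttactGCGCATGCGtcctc
Mrpl22: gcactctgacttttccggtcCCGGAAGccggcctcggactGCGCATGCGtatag
Mrps26: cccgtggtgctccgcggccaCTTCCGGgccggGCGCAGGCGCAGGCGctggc
Mrpl57: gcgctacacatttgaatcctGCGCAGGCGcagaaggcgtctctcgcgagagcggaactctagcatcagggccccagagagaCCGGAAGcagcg

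Of the other motifs searched on both strands, AAGATGGCG, a core of the YY1 site, occurred in 8 genes (11.8%, against 3.62% of expressed genes). In 6 of these genes (Mrpl42, Mrps24, Mrps18a, Mrpl37, Mrps27 and Mrpl35) it lay after the start. The CRE TGACGTCA was in 2 genes (2.94%, against 3.47%), the E-box CACGTG in 5 (7.35%, against 11.8%) and the ERR core AAGGTCA in 4 (5.88%, against 3.79%). GGGCGG, the core of the SP site, was in 34 of the 68 genes, against 69.7% of expressed genes. The 25 genes with the ETS letters had a median of 103.2 and 114.2 TPM in the libraries, and the 43 without had 61.1 and 62.8. The 16 with the NRF1 letters had 59.3 and 59.3 TPM, and the 52 without had 93.5 and 98.1. These medians were not tested.

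All 77 genes were detected. Each reached 1 TPM (a level per transcript length, scaled to a fixed sum in each library) in both libraries, as did 31.5% of all gene rows, and each reached 10 TPM, as did 18.2%. A level of 100 TPM in both libraries was reached by 35 of the 77, against 2.97% of gene rows. The median was 87.1 TPM in replicate 1 and 90.7 in replicate 2 (88.9 ± 2.54, mean ± SD, n = 2), against a median of 15.8 and 16.3 for the 12202 protein-coding genes expressed in both. The genes together held 0.495% and 0.502% of all gene counts. Of the 77, 56 were within 2-fold of the median, with an SD of 0.95 on the log2 TPM scale. Related lists had like SDs, with 0.96 for cytosolic ribosomal proteins, 0.92 for mitoribosome assembly factors and 1.00 for nuclear respiratory chain subunits. It was 1.41 for mitochondrial translation factors, 1.75 for mitochondrial aminoacyl-tRNA synthetases and 2.04 for the 12202 protein-coding genes. In whole hearts, a change in the share of a cell type and a change in RNA per cell cannot be told apart.

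**Figure D1:**
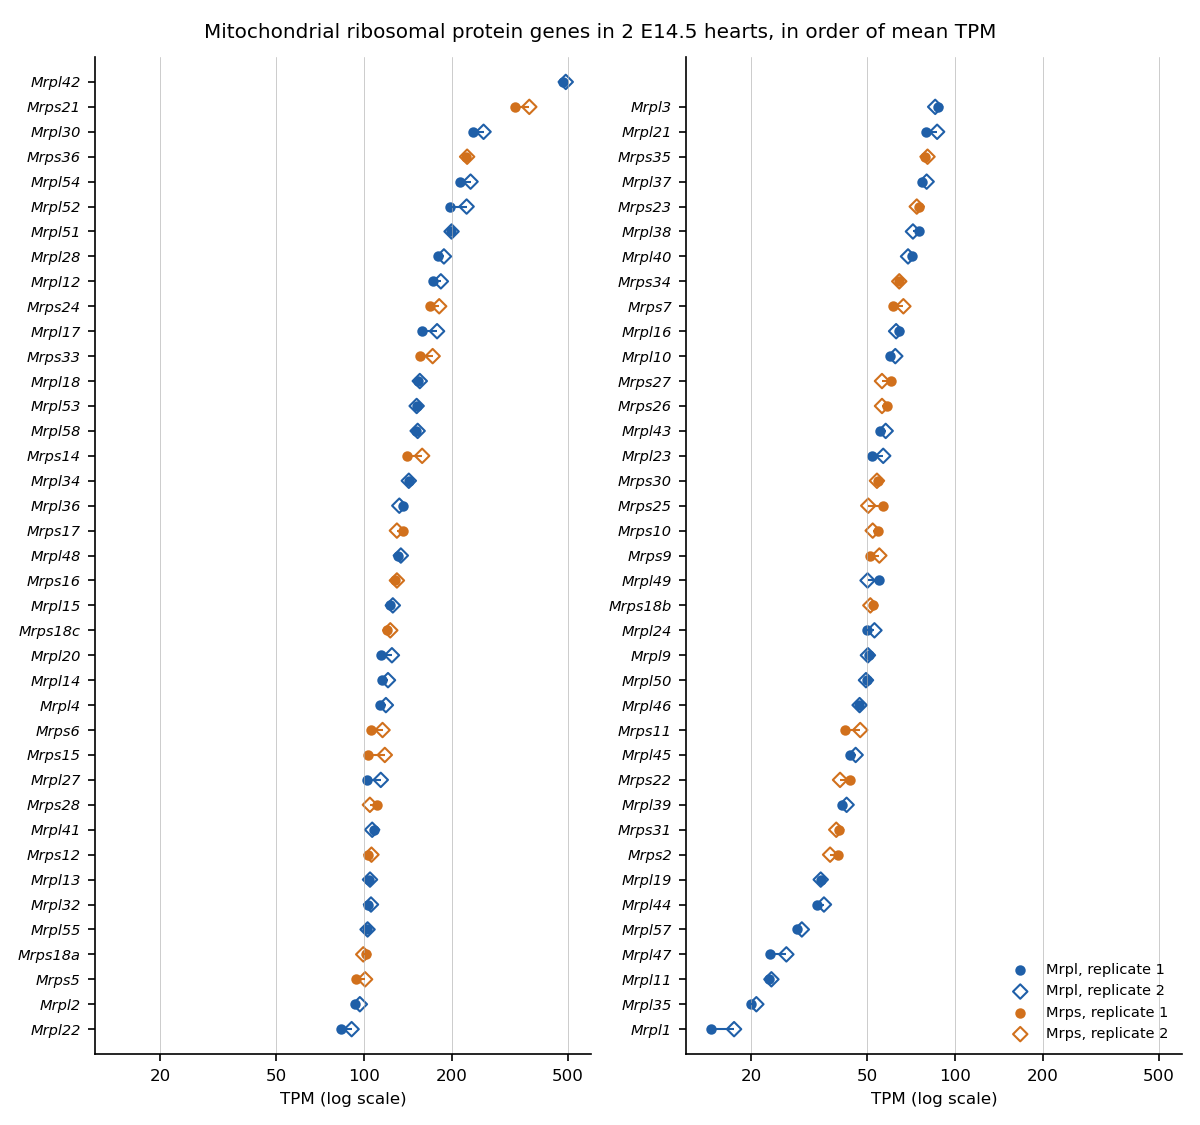
TPM (log axis) of each of the 77 genes in replicate 1 (filled circles) and replicate 2 (open diamonds), in order of mean TPM, with Mrpl genes in blue and Mrps genes in orange. Levels ran from 16.02 TPM for Mrpl1 to 487.4 for Mrpl42, and the libraries lay close together for each gene.

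Mrpl42, a protein found only in mitochondrial ribosomes, had the highest level, with 483.0 TPM in replicate 1 and 491.9 in replicate 2. Mrps21, the counterpart of bacterial S21, followed with 329.4 and 368.9 TPM. Mrpl30, the counterpart of bacterial L30, had 236.0 and 257.1. These 3 genes did not overlap one another in either library. Mrps36 had 224.3 and 225.8 TPM, and its product is now known as a subunit of the oxoglutarate dehydrogenase complex rather than of the ribosome. Mrpl54 had 214.0 and 232.0 TPM and Mrpl52 had 197.6 and 224.9, so that the libraries of Mrps36, Mrpl54 and Mrpl52 interleaved. Mrpl51 (198.8 and 199.7), Mrpl28 (178.9 and 188.0), Mrpl12 (172.9 and 183.5) and Mrps24 (168.4 and 181.1) completed the 10 highest. The lowest was Mrpl1, the counterpart of bacterial L1, with 14.6 and 17.5 TPM. Mrpl35 had 20.01 and 20.83, Mrpl11 had 23.0 and 23.5, Mrpl47 had 23.2 and 26.4, and Mrpl57 had 28.7 and 29.8. Along the whole order, 25 of the 76 neighbouring pairs had libraries that did not overlap, so most neighbours cannot be ranked beyond their spread. The log2 TPM of the 77 genes in the 2 libraries had Pearson r = 0.996, a description over genes that share the same libraries.

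By symbol, Mrpl genes had a median of 90.3 and 93.8 TPM and Mrps genes 78.8 and 80.5, a log2 ratio of 0.21 ± 0.02 (SD, n = 2). Mrps18a and Mrps30 carry small-subunit symbols although their products lie in the large subunit, and with the structural assignment (Mrps36 left out) the ratio was 0.25. The split by ancestry was wider. Proteins with bacterial counterparts had medians of 99.4 TPM in the large subunit (28 genes) and 107.7 in the small (16 genes). Proteins found only in mitochondria had 73.5 TPM in the large subunit (21 genes) and 57.8 in the small (10 genes). The ranges overlapped widely, and the highest gene of all, Mrpl42, was of the mitochondrial kind. The median transcript lengths of these classes were 1001, 864, 1111 and 1199 nt in the same order, so the longer classes were also the lower ones. Mrps18a and Mrps18b are counted here among the proteins found only in mitochondria, as ribosome nomenclature does, although they resemble bacterial S18, and Mrps36 and Mrpl55 were placed in no class.

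The RNA of proteins that sit side by side in the ribosome could differ several-fold in TPM, while protein was not measured. In the stalk that recruits translation factors, Mrpl12 (the counterpart of bacterial L7/L12) had 172.9 and 183.5 TPM, Mrpl10, which anchors it, had 60.1 and 62.4, and Mrpl11 at the stalk base had 23.0 and 23.5. At the exit of the polypeptide tunnel, Mrpl17 had 158.2 and 178.1 TPM and Mrpl22 had 83.5 and 90.7. Mrpl23 and Mrpl24 lay lower, with 52.1 and 56.7 TPM for Mrpl23 and 50.1 and 52.9 for Mrpl24. Mrpl45, which ties the tunnel exit to the inner membrane, had 43.6 and 45.6, and Mrpl47 was the lowest of the group. In the central protuberance, Mrpl18 had 153.8 and 155.4 TPM, Mrpl48 had 130.6 and 133.8, Mrpl38 had 75.3 and 71.7, Mrpl40 had 71.3 and 69.0, and Mrpl46 had 46.9 and 47.1. Near the catalytic and decoding centres the levels were close together. Mrpl4 had 113.3 and 118.9 TPM, Mrpl27 had 102.6 and 114.2, and Mrps12, the decoding-centre protein, had 103.2 and 106.1. Mrpl2 had 93.4 and 96.8 TPM, Mrpl3 had 87.1 and 85.5, and Mrpl16 had 64.2 and 62.8. This group had an SD of 0.31 on the log2 TPM scale, the stalk 1.47 and the tunnel exit 0.94. Transcript lengths differed too, with 1285 nt for Mrpl12, 1703 for Mrpl10 and 2882 for Mrpl11. They ran from 566 nt (Mrpl23) to 2274 (Mrpl45) at the tunnel exit and from 711 (Mrps12) to 1392 (Mrpl3) near the catalytic and decoding centres. The part of length in these levels was not tested.

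Across the rest of the small subunit, mean levels formed a graded series. Among counterparts of bacterial proteins, Mrps17 had 132.9 TPM, Mrps16 128.8, Mrps6 110.7, Mrps15 110.7 and Mrps28 107.8. Mrps5 had 97.3 TPM, Mrps7 63.8, Mrps10 53.3, Mrps9 53.1 and Mrps11 44.6, and Mrps2, the counterpart of bacterial S2, was lowest with 39.8 and 37.3 TPM in the libraries. Among proteins found only in mitochondria, Mrps33 stood above the others with 156.2 and 172.0 TPM. Below it were Mrps35 (79.6), Mrps23 (74.7), Mrps34 (64.2), Mrps27 (58.2), Mrps26 (57.4), Mrps25 (53.4) and Mrps31 (39.5). Mrps27 is a pentatricopeptide repeat protein that binds RNA.

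In the rest of the large subunit, the bacterial counterparts were Mrpl34 with 142.7 TPM, Mrpl36 with 133.9, Mrpl15 with 124.1, Mrpl20 with 119.8, Mrpl14 with 118.1, Mrpl13 with 104.5, Mrpl32 with 104.4, Mrpl21 with 83.3, Mrpl9 with 50.5 and Mrpl19 with 34.7. The proteins found only in mitochondria included Mrpl58, a peptidyl-tRNA hydrolase that became a ribosomal protein, with 150.4 and 152.8 TPM in the libraries. Mrpl53 had 151.9 TPM, Mrpl41 107.6, Mrpl37 78.4, Mrpl43 56.6, Mrps30 54.2, Mrpl49 52.5, Mrpl50 49.6 and Mrpl39 41.7, and the unclassed Mrpl55 had 102.6. The SD between the libraries was at most 11.1 TPM for every gene of these lists, and that of Mrps33 was the largest.

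Recessive variants in 4 of the genes are known to cause heart muscle disease in humans. Mrps14 had 140.0 and 158.3 TPM, Mrps22 had 43.7 and 40.3, Mrpl44 had 33.7 and 35.5, and Mrpl3 was given above. Their median of 64.2 TPM lay below that of all 77. The vertebrate ribosome has 3 proteins related to bacterial S18, and the mouse heart expressed all of them. Mrps18c had 119.7 and 123.1 TPM, Mrps18a had 101.7 and 99.4, and Mrps18b had 52.2 and 51.2, in an order that was the same in both libraries and without overlap.

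Other parts of mitochondrial translation gave a scale for these levels. The 5 mitoribosomal proteins with other symbols had a median of 89.9 TPM, close to that of the 77. Among them Chchd1 had 172.6 and 178.7 TPM, Dap3, which binds GTP in the small subunit, had 107.7 and 109.3, and Aurkaip1 had 87.7 and 92.1. The lists of factors that build or use the ribosome had lower medians. Their transcripts were also longer, with median lengths of 1603 nt for assembly factors, 1887 for translation factors and 2422 for synthetases, against 971 for the 77. Those of DNA maintenance and of biogenesis regulators, given below, were 1986 and 2627 nt. The part of length in these levels was not tested. The 25 assembly factors had a median of 18.7 TPM and none reached 100 in both libraries. Fastkd2, an RNA-binding factor for the large subunit rRNA, had 44.9 and 50.7 TPM and Rbfa 46.1 and 46.3, so their libraries overlapped, and Malsu1 had a mean of 43.0. The 16 translation factors and messenger RNA-binding proteins had a median of 31.4 TPM. Slirp was highest with 199.2 TPM, before the elongation factors Tufm with 148.9 and Gfm1 with 89.3. The 17 mitochondrial aminoacyl-tRNA synthetases had a median of 21.5 TPM, with Lars2 far above the others at 978.2. Rars2 (37.5 and 36.8) and Fars2 (33.3 and 36.8) came after it and overlapped. Whether all reads counted for Lars2 came from that gene was not tested. The 8 genes of mitochondrial DNA maintenance and transcription had a median of 20.96 TPM, with the single-strand binding protein Ssbp1 highest at 76.9. The 9 regulators of mitochondrial biogenesis had 20.8, with the coactivator Ppargc1a highest at 52.6. Gabpa had 29.2 and Nrf1 24.4 TPM.

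Partners of the translated proteins had higher medians. The 39 nuclear respiratory chain subunits had a median of 754.4 TPM and the 15 genes of import and matrix proteins 241.8. The median of the 77 cytosolic ribosomal protein genes was 505.5 TPM, and they summed to 39115 and 43060 TPM, against 7857 and 8152 for the mitochondrial set. That is a ratio of 4.98 in replicate 1 and 5.28 in replicate 2. Median transcript lengths were 861 nt for the respiratory chain subunits, 1604 for import and matrix and 677 for the cytosolic set. The part of length in these medians was not tested. The ribosomal RNAs of the mitochondrial ribosome itself had 7039 and 7678 TPM (mt-Rnr2, large subunit) and 2801 and 3392 TPM (mt-Rnr1, small subunit). These are total RNA libraries, and the removal of ribosomal RNA is not described in the sources used here.

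**Figure D2:**
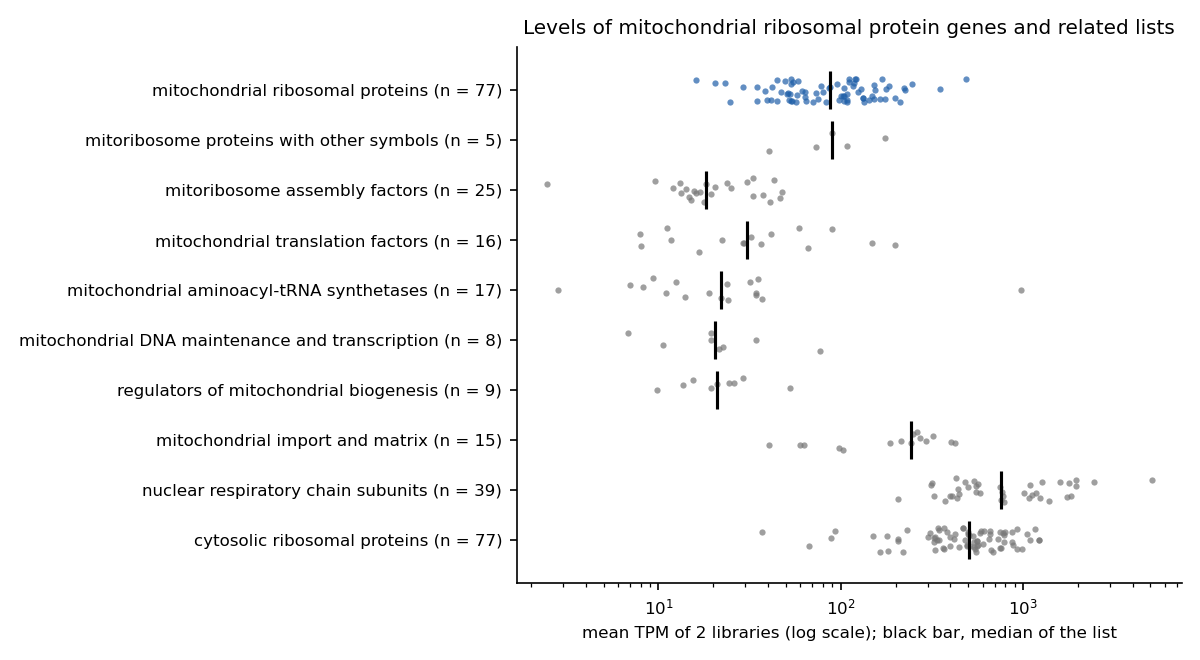
Mean TPM of the 2 libraries (log axis) for each gene of the mitochondrial ribosomal proteins (blue) and of 9 related lists (grey), with a black bar at the median of each list. The 77 mitochondrial ribosomal proteins centre near 87.1 TPM, above assembly factors (18.2) and below cytosolic ribosomal proteins (506.3), where each median is that of the genes' mean TPM.

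The level of a mitochondrial ribosomal protein gene fell with the length of its transcript. Over the 77 genes log2 mean TPM and log2 length had Pearson r = −0.80 and Spearman rho = −0.78, against r = −0.35 over 12202 protein-coding genes and r = −0.28 over the 77 cytosolic ribosomal protein genes. The 21 shortest genes (412 to 749 nt) had a median of 151.6 TPM, the 30 of middle length (767 to 1213 nt) had 98.9, and the 26 longest (1285 to 3715 nt) had 51.5. The estimated read count, which is not divided by length, had r = −0.06 with length. The count thus did not follow length, but its correlation with length was not computed for other genes. TPM is divided by length, and the part of that division in the trend was not tested. Mean counts ran from 533.0 for Mrpl23 to 5798 for Mrpl42. These correlations are over genes of the same 2 libraries and describe them only.

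**Figure D3:**
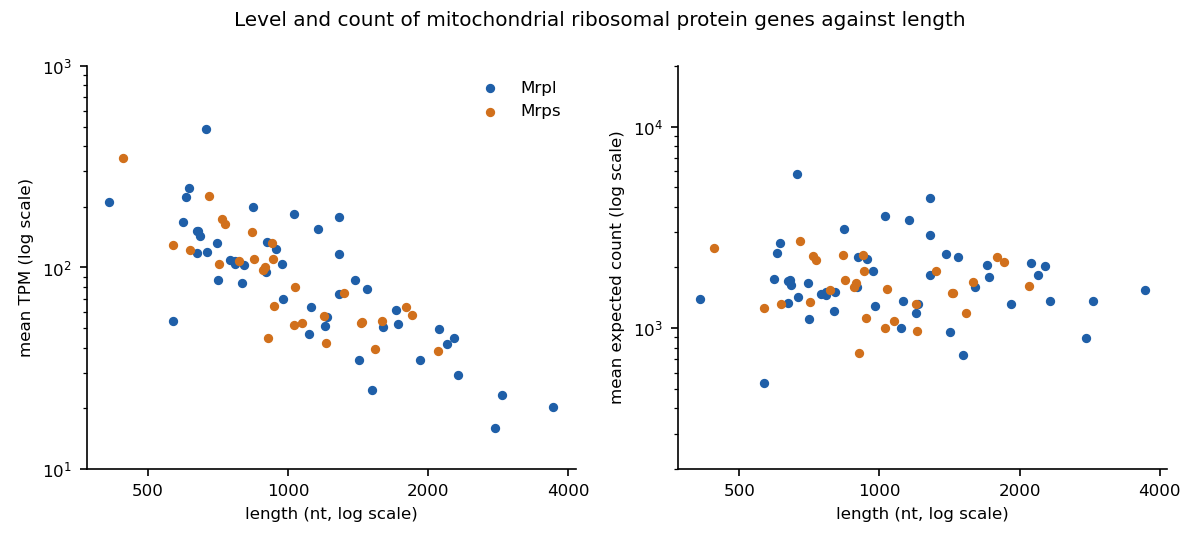
Mean TPM (left) and mean expected count (right) of the 77 genes against transcript length in nt, all on log axes, with Mrpl genes in blue and Mrps genes in orange. TPM falls with length (r = −0.80) and the count does not (r = −0.06).

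The 2 hearts differed little in these genes. With counts scaled by TMM (a factor per library from the genes whose ratios are central), the log2 ratio of replicate 2 over replicate 1 had a median of −0.023 and ran from −0.18 (Mrpl49) to 0.16 (Mrpl47). Of all gene rows whose mean count was 100 or more, 5.31% were higher in replicate 2 by 25% or more and 3.35% were so in replicate 1, but 0 of the 77 in either direction. It was also 0 of the 77 cytosolic ribosomal protein genes, 0 of 39 nuclear respiratory chain subunits and 0 of 15 import and matrix genes. Each mitochondrial ribosomal protein gene had a mean count of at least 533.0, and the share at 25% was not taken over genes of like count. At least 2-fold apart were 0.426% of gene rows and 0 of the 77. The middle 50% of the 77 ratios lay between −0.06 and 0.03, against −0.10 and 0.07 for the 7312 genes in the same range of counts. Counting error alone, in an exact 95% interval from the 2 counts, excluded equality for 6 genes higher in replicate 2 and 10 higher in replicate 1. The same count over all gene rows was not made, so these numbers have no background beside them. The interval does not cover the difference between hearts, and reads are not independent molecules.

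Mrpl47 had counts of 684 and 793, a fold of 1.11 (1.00 to 1.24), and Mrpl52 had 1294 and 1481 (1.10-fold, 1.02 to 1.19). Mrps15, a counterpart of bacterial S15, had 1796 and 2053 (1.10-fold, 1.03 to 1.17). The others higher in replicate 2 were Mrps14, Mrps21 and Mrpl30. In the other direction Mrpl49 had 1863 and 1711, which was 1.13-fold higher in replicate 1 (1.06 to 1.21) after scaling. Mrps22 was 1.12-fold higher there (1.02 to 1.22) and Mrps27 1.11-fold (1.04 to 1.18). Mrps2, Mrpl38, Mrps28, Mrpl19, Mrps25, Mrps17 and Mrpl36 were the rest of these 10. All of them differed by less than 25%.

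**Figure D4:**
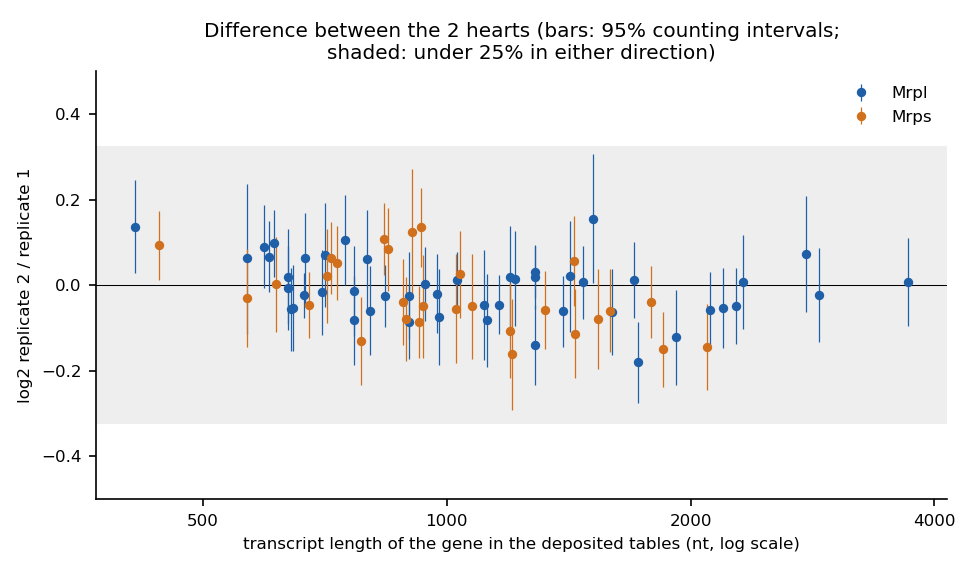
Log2 ratio of replicate 2 over replicate 1 (TMM-scaled counts) of each of the 77 genes against transcript length in nt (log axis), with bars for exact 95% counting intervals and grey shading for differences under 25%. Every point lies inside the shading, from −0.18 to 0.16.

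How many genes were higher in replicate 2 depended on the scaling. TMM gave 34 of 77 and DESeq2 size factors 35, total counts 43, the TPM ratio 52 and spike-in scaling 70, since spike-ins moved the median of all genes to 0.11. Of the 11958 gene rows with a mean count of 100 or more, 48.1% were higher in replicate 2 with TMM, 50.2% with DESeq2 size factors, 57.7% with total counts, 61.5% by the TPM ratio and 77.7% with spike-ins, beside 44.2%, 45.5%, 55.8%, 67.5% and 90.9% of the 77. Cytosolic ribosomal protein genes were higher in replicate 2 in 71 of 77 cases with TMM and in 74, 74, 75 and 77 with the other scalings in the same order. Their median log2 ratio with TMM was 0.08. The nuclear respiratory chain subunits were higher in replicate 2 in 5 of 39 cases with TMM and in 33 with spike-ins. Among structural groups, the 6 tunnel-exit genes were higher in replicate 2 in 5 or 6 cases under all 5 scalings. The 5 central protuberance genes were lower in replicate 2 with TMM, but 4 of them were higher with spike-ins. Length moved with the ratio as well. It was above 0 in 14 of the 21 shortest genes, 10 of the 30 of middle length and 10 of the 26 longest, where over protein-coding genes of the same length classes it was above 0 in 65.3% of 366, 56.0% of 1130 and 46.4% of 9933. The part of length in the ratio was not tested.

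None of the assembly factors, translation factors or synthetases differed by 25% between the hearts. Polg2, the accessory subunit of the mitochondrial DNA polymerase, was 1.34-fold higher in replicate 2 (1.10 to 1.63, counts of 182 and 253), and the nuclear receptor Esrra was 1.28-fold higher (1.11 to 1.49, counts of 316 and 422). Of the 13 protein genes of the mitochondrial genome, mt-Nd3 and mt-Nd4l were 1.39-fold and 1.38-fold higher in replicate 1. The gene mt-Nd4, which shares a messenger RNA with mt-Nd4l, had 2562 and 2639 TPM, a fold of 0.995 after scaling.

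Depth was 27469198 and 27932136 counts on gene rows. The 6 cardiomyocyte markers were all detected and summed to 22134 and 20975 TPM. The 7 erythroid markers, also all detected, summed to 58898 in replicate 1 and 32892 in replicate 2. Macrophage markers summed to 160.2 and 147.6 TPM, endothelial to 314.5 and 314.1, epicardial to 118.7 and 136.8, smooth muscle to 1169 and 1120, and the 3 liver markers to 2.62 and 2.30. The 6 neuron markers, of which 3 reached 1 TPM in both libraries, summed to 5.85 in replicate 1 and 17.7 in replicate 2. Skeletal muscle markers summed to 9.52 and 12.7 TPM with 1 of 3 at 0 in both, and lung epithelium markers to 0 and 0.110. TPM of every gene shares a total with the erythroid RNA, and without haemoglobin and mitochondrial-genome genes the median of the 77 was 108.9 TPM. The part of blood, neuron or epicardial content in the differences between hearts was not tested.

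Mrpl23, a tunnel-exit protein on chr7:142532686-142540747 (plus strand, GRCm38, GENCODE M21), was the only gene whose posterior SD exceeded 10% of its count, with 19.6% in replicate 1 and 15.9% in replicate 2. For 72 of the 77 the posterior SD was under 1% in both, which was not counted over other genes. A processed pseudogene, Mrpl23-ps1, on chr2:74591330-74591909 (minus strand), holds the full coding part of Mrpl23-201 (438 nt) with 0 mismatches and 0 gaps. Their first 60 bases are shown because reads from this stretch fit both genes, with nothing in capitals since no base differs.
Mrpl23: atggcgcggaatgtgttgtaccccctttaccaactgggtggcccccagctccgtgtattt
Mrpl23-ps1: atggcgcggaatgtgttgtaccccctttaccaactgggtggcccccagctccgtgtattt
The tables give Mrpl23 511 and 555 counts and the pseudogene 1687 and 1819. In TPM these are 52.1 and 56.7 for Mrpl23, against 167.7 and 179.8 for the pseudogene and 219.8 and 236.5 for the sum. The sum lies beside the levels of Mrps36 and Mrpl54, so the level of Mrpl23 is uncertain between its own value and one of the highest of the set. Of the reads placed in Mrpl23, most went to the noncoding transcript Mrpl23-202 (40.5 and 45.0 TPM), and Mrpl23-201 had 9.77 and 10.5.

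Further genes shared sequence with other rows. In all, 19 of the 77 shared at least 10% of the 31-base words of either gene with 24 pseudogenes on the same strand, and 6 of these pseudogenes reached 1 TPM in each library. Of the words of Mrpl53, 84.4% also lay in Gm42688, a coding model at 2.46 and 2.53 TPM. For 11 genes, a gene on the opposite strand held at least 10% of the words of the ribosomal gene. Shared words were not counted for genes outside the set, so whether the 77 are unusual in this is not known. The largest overlaps with the opposite strand were 56.8% of Mrps34 with Mapk8ip3 and 53.5% of Mrps25 with Nr2c2. On the same strand, the coding gene Nme3 (30.6 and 34.0 TPM) held 35.6% of the words of Mrps34. Urgcp held 13.25% of those of Mrps24 and Slc5a3 12.6% of those of Mrps6, also on the same strand. The use of strand in the counting is not given in the sources used here, and without it reads of the 2 strands cannot be told apart.

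Many of the genes start next to another gene. A protein-coding gene on the other strand started within 1000 nt (apart or overlapping) for 33 of the 77 (42.9%), against 1979 of 12202 expressed protein-coding genes (16.2%), a difference that was not tested. The partner had the lower mean TPM in 27 and the higher in 6. In Mrpl10, Mrpl9 and Mrps30 the partner (Lrrc46, Oaz3 and B430218F22Rik) was under 1 TPM, while the ribosomal gene had 61.2, 50.5 and 54.2. The partners above their neighbour were Ndufs6 (634.1 TPM beside 133.9 for Mrpl36), Ndufb5 (501.4 beside 24.8 for Mrpl47), Fau, a cytosolic ribosomal protein (367.8 beside 52.5 for Mrpl49), Psma2 (268.0 beside 104.4 for Mrpl32), Tcp1 (266.6 beside 154.6 for Mrpl18) and Mrpl46. Mrps12 lay beside the mitochondrial seryl-tRNA synthetase Sars2, which had 14.1 TPM against 104.6, and Mrpl43 beside the mitochondrial helicase Twnk, with 10.6 against 56.6.

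Mrpl46 and Mrps11 are the pair in which both genes encode mitochondrial ribosomal proteins. Mrpl46 had 46.9 and 47.1 TPM and Mrps11 42.0 and 47.3, so the libraries overlapped. Their RefSeq starts lie 42 nt apart on chromosome 7, at 78783089 for Mrpl46 (minus strand) and 78783131 for Mrps11 (plus strand). In GENCODE M21 the 2 genes instead overlap at their starts by 412 nt. Of the 31-base words of Mrpl46, 10.5% lie on the opposite strand in Mrps11. Whether reads of this overlap entered both levels was not tested. The stretch chr7:78783059-78783160 (GRCm38.p6, plus strand) is shown as the region that both genes start from, with the 2 start bases in capitals, that of Mrpl46 first.
Mrps11 and Mrpl46: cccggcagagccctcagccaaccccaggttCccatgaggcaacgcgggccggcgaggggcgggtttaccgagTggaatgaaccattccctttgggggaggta

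**Figure D5:**
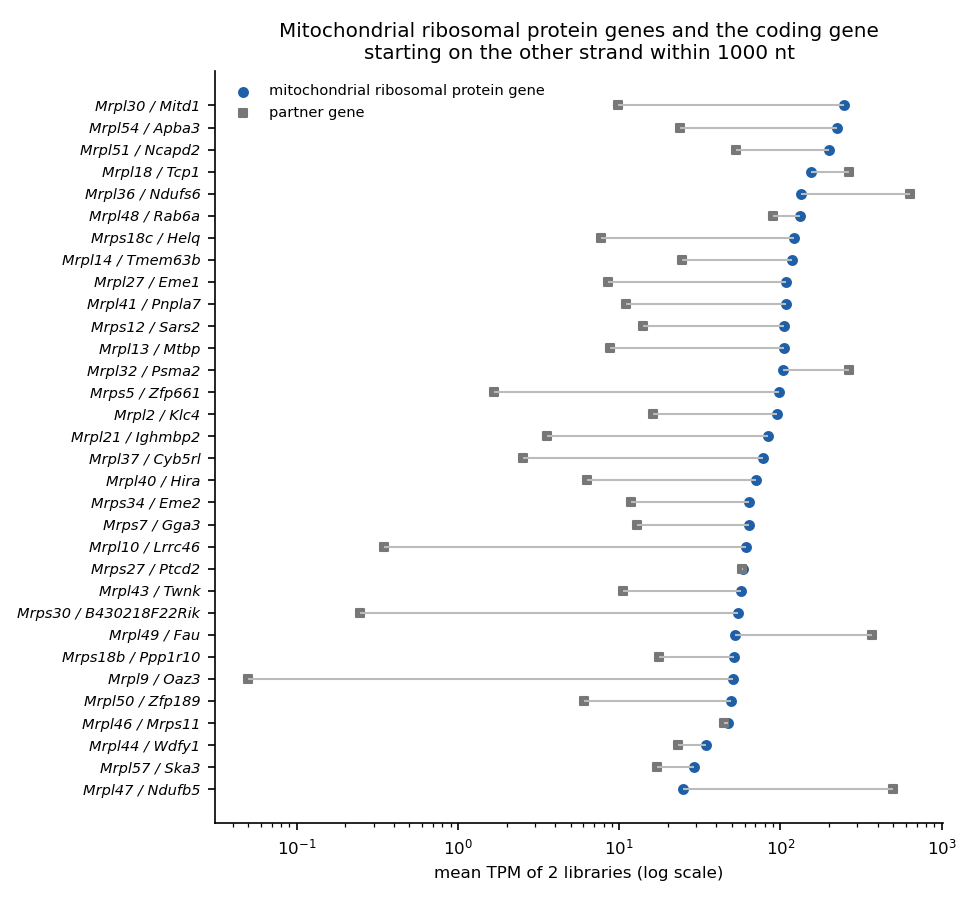
Mean TPM (log axis) of each mitochondrial ribosomal protein gene (blue circles) and of the coding gene that starts on the other strand within 1000 nt (grey squares), joined by a line, with Mrpl46 and Mrps11 drawn as 1 pair. The partner is lower for 27 genes and reaches from 0.0500 TPM (Oaz3) to 634.1 (Ndufs6).

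Transcript usage was stable between the hearts. Of the 58 genes with several transcripts in the tables, 56 (96.6%) had the same leading transcript by TPM in both libraries, against 90.5% of 8997 protein-coding genes. In 51 (87.9%, against 76.6% of protein-coding genes) the mean share of the leader was 50% or more, and in 48 (82.8%, against 70.6%) it was so in each library. The leader was protein coding in 45 (77.6%, against 90.6% of protein-coding genes), or in 50 when ranked by count, which is not divided by transcript length. Mrpl20 and Mrpl40 had different leaders in the 2 libraries, and the shares of the replicate 1 leader were 51.8% and 48.0% for Mrpl20 and 52.9% and 49.3% for Mrpl40. The lowest leading shares were in Mrpl24 (33.8% and 31.1%), Mrps5 (30.6% and 38.2%), Mrpl48 (39.6% and 43.6%, annotated as a target of nonsense-mediated decay), Mrpl55 (46.3% and 43.6%) and Mrps11 (47.9% and 46.5%, also nonsense-mediated decay). In Mrpl51 a retained-intron model led with 47.4% in each library. Retained-intron models also led in Mrps24 (76.2% and 75.3%), Mrps25 (74.4% and 68.8%) and Mrps26 (95.8% and 95.6%). Nonsense-mediated decay models led in Mrps14 (89.5% and 89.4%), Mrpl3 (70.0% and 70.6%) and Mrpl13 (58.2% and 58.2%). Processed transcripts led in Mrpl23 (77.7% and 79.3%), Mrpl47 (65.0% and 64.0%), Mrpl15 (58.1% and 58.6%) and Mrpl19 (51.4% and 49.2%). Mrpl32, which has 1 transcript and is outside the 58, has only a nonsense-mediated decay model. Ranked by count, coding models led in Mrps25 (68.8% and 71.2%), Mrps11 (52.1% and 52.7%) and Mrps5 (39.3% and 38.3%), and a processed transcript led in Mrpl51 (48.0% and 46.9%). Coding models also led by count in Mrpl13, Mrpl19 and Mrpl47. Mrps24, Mrps26, Mrps14, Mrpl3, Mrpl15, Mrpl23 and Mrpl48 were led by models of the same kind by count as by TPM. These shares are estimates from total RNA, and the shared exons leave the split between models to the quantification. The 77 genes had fewer transcripts (median 3, against 4 for the 12202 protein-coding genes) and higher TPM (median 87.1, against 16.1). The part of these in the comparison of leading transcripts was not tested.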

How the data were processed

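Total RNA-seq of 2 E14.5 hearts, 1 library each, was analysed from deposited gene and transcript tables. They rest on mm10 with GENCODE M4, per the labels and the deposited file descriptions. Not given in the sources used here are the aligner, the quantifier, their versions and the use of strand. Expected counts are estimated read counts as deposited, not scaled for depth, with a posterior SD. The authors' TPM has the same sum in each library, over all rows with spike-ins. FPKM values, also made by the authors, served as an alternative. Transcript shares as a percent of a gene's TPM are in the deposited tables as well and were recomputed here.

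RNA was longer than 200 nt, 10 ng per library, with spike-ins, per the labels' protocols. Symbols, positions and transcript types came from GENCODE M21 (GRCm38), which named 42462 of 43346 gene rows, and promoters from RefSeq (GRCm38.p6). Ratios between libraries are log2 of TMM-scaled expected counts (edgeR 4.0.16, R 4.3.3) with a prior of 0.5. DESeq2 1.42.0 size factors were an alternative, and folds were counted from a mean count of 100. Counts were rounded for the library factors and the intervals. The script was tested on simulated data. Intervals are exact (Clopper-Pearson) at 95%. With 1 library per embryo and 1 group, no p-value was computed. The depth of 27469198 and 27932136 gene counts gave each gene of the set a mean of at least 533.0 counts.

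The genes, lists, motifs and tests were chosen with earlier results of these data known. The length classes, divergent partners, shared words, the Mrpl23 alignment, the Mrpl46 and Mrps11 stretch, the count of motifs by window and the leading share in each library were added after values were seen. Named in full are the 10 highest and 5 lowest genes, the functional lists, genes with an uncertain count and up to 10 with a divided, differing or noncoding leading transcript, lowest share first (the noncoding leaders beyond these were chosen after their values were seen).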

Additional observations from a re-analysis of the deposited data

Results flagged for a closer look

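Signal appeared in pseudogene rows that lie outside the 77 genes and share sequence with them on the same strand, with over 3 counts in each library. Mrpl23-ps1, whose sequence holds the coding part of Mrpl23, had a mean of 173.8 TPM. Gm5776, related to Mrps33, had 24.2 TPM, beside 164.1 for Mrps33. The others were low. Gm12774 and Gm6304, both related to Mrpl27, had 2.48 and 0.710 TPM. Mrps36-ps1 had 2.47 TPM, Mrpl48-ps 1.33, Gm6419 (related to Mrpl42) 1.19 and Gm13328 (related to Mrps5) 0.315. How many of these reads came from the parent genes was not tested.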

How the results depend on the processing

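No paired analysis was possible because there is 1 group. All 77 genes stayed at or above the TPM minimum, and 0 were 25% or 2-fold apart, under each alternative run. The median level of 88.9 TPM was 64.9 as FPKM and 108.9 as TPM without mitochondrial-genome and haemoglobin genes, which took the share of counts from 0.499% to 0.529%. It was 90.7 without replicate 1 and 87.1 without replicate 2. The large to small subunit log2 ratio of 0.21 was 0.25 with subunits from the known structure. The median log2 difference of −0.023 was 0.092 with spike-in scaling, 0.011 with total counts and 0.035 as a TPM ratio. Spike-in scaling moved 63 of the 77 single-gene differences beyond their counting error and the TPM ratio moved 7, while DESeq2 size factors, total counts, posterior mean counts and a prior of 2 moved none. A change of library factor shifts all 77 ratios by nearly the same amount. Which genes spike-ins, DESeq2 size factors or total counts moved thus follows from their counts and says nothing about single genes. Genes with the NRF1 letters went from 16 to 10 in the last 100 bases before the start (14.7%, against 8.86% of expressed genes) and to 21 with the looser GCGCNNGCG (30.9%, against 28.1%). Those with the ETS letters went from 25 to 15 there (22.1%, against 11.0%) and to 38 with the shorter CGGAAG (55.9%, against 35.3%). The number of genes with the same leading transcript, 56, was also 56 by expected count, with 54 genes in both. With 1 library per heart, depth limits single genes to the intervals given, and the spread between hearts rests on 2 values.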
